A study of Schizosaccharomyces pombe with 12 samples.

Results

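Unstressed ubp16 cells of the fission yeast Schizosaccharomyces pombe were set against wild type (WT) cells under hydrogen peroxide, to ask how far the mutant resembles stressed WT and which stress genes it does not reach. The comparison rests on 4 of the 12 libraries of the series, chosen by their labels: 2 of untreated ubp16 and 2 of WT kept for 30 min in 1 mM hydrogen peroxide. The 2 libraries of untreated WT give the unstressed level beside many of the values. Where it is not given, a difference from treated WT does not show which of the 2 groups departs from the unstressed level. The 4 libraries of a further mutant, ubp8, served to choose peroxide-responsive genes, and the 2 of treated ubp16 enter the model only. The labels give the mutants by gene name with no allele, and WT as 972. All cells grew in the same rich medium, and polyA RNA was sequenced with a stranded kit. No label says whether replicate libraries stem from independent cultures, and a p-value here measures the spread between these samples, which may be technical.

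Fission yeast meets peroxide with a few main regulators. The mitogen-activated kinase Sty1, with the transcription factor Atf1, switches on the core environmental stress response, a set of genes shared by many stresses. The transcription factor Pap1 drives genes that remove peroxide, and heat shock factor drives chaperones, while genes for ribosome assembly and cell division are turned down. Ubp8 and Ubp16 belong to the ubiquitin-specific proteases, which cut ubiquitin from proteins, and Ubp8 is the enzyme of the SAGA complex that removes it from histone H2B.

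Total counts were 12504448 and 10127788 in untreated ubp16, 10611933 and 11909757 in treated WT, and 9904056 and 11784852 in untreated WT. Levels are given as CPM, read counts scaled to a common library size. A level of 3 counts, the limit that a count of 0 allows, was 0.185 to 0.316 CPM over the 12 libraries, and this covers counting error only. The mutant's own transcript was present in all of them. It stood at 22.2 and 24.9 CPM in untreated ubp16, against 20.5 and 25.5 CPM in treated WT and 46.7 and 54.3 CPM in untreated WT. The unstressed mutant and stressed WT overlapped, with a log2 fold change of 0.03 ± 0.16 (SE) and a 95% interval of -0.31 to 0.36. Against untreated WT the transcript was lower, by a log2 fold change of -1.10 ± 0.15 (adjusted p = 4.54e-05). Without the allele, these levels check the label only in so far as the mutant differs from untreated WT.

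Over all 8166 genes tested, untreated ubp16 lay nearer to unstressed than to stressed WT. The root mean square log2 distance between libraries of untreated ubp16 and treated WT was 1.19 to 1.22. Untreated ubp16 and untreated WT were closer, at 0.777 to 0.899, and treated and untreated WT were 1.18 to 1.21 apart. Libraries of the same group were 0.507 apart in untreated ubp16, 0.475 in treated WT and 0.491 in untreated WT. The distances are descriptions across genes, which are not independent replicates.

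Untreated ubp16 was higher than treated WT in 2331 genes (28.5%) and lower in 2180 (26.7%) by edgeR's quasi-likelihood test at an adjusted p under 0.05. At 2-fold or more, 953 genes were higher (11.7%) and 1115 lower (13.7%). Of the 4954 protein-coding genes alone 38.7% were higher and 27.9% lower at any fold change, the background for the counts of the gene lists below. The median over all genes was 0.02 on the log2 scale. In 6151 of the 8166 genes the libraries of the 2 groups did not overlap, so a lack of overlap is common here and only describes the values. A gene was taken as alike when the 95% interval of its log2 fold change lay wholly within 2-fold, and 3653 genes met this (44.7%). Scaling by library totals alone moved the median of all genes by 0.298 towards ubp16. That turned the split to 3424 higher and 1440 lower, so differences are read here relative to the median gene.

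The peroxide-induced genes were chosen in ubp8, whose libraries form neither side of the comparisons described. There 859 genes rose at least 2-fold (10.5% of those tested). The filter, scaling and estimate of spread were shared by all 12 libraries, so the choice is separate only in the groups compared. In untreated ubp16 409 of the 859 were higher than in untreated WT (47.6%, against 14.3% of all genes), with a median log2 fold change of 0.47, and 45 were lower (5.24%, against 11.3%). In treated WT 763 were higher than in untreated WT (88.8%, against 26.2% of all genes), with a median of 1.68. Set directly against treated WT, untreated ubp16 was lower in 649 (75.6%) and higher in 43 (5.01%), with a median of -1.15. These 3 comparisons share libraries pairwise, so they are given side by side only.

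Among the 581 protein-coding genes of the induced set, 469 were lower in untreated ubp16 than in treated WT (80.7%, against 27.9% of all coding genes) and 32 were higher. For 183 of them the interval lay within 2-fold (31.5%, against 66.5% of all coding genes). For 207 it lay wholly beyond 2-fold lower, for 13 wholly beyond 2-fold higher, and for 178 it crossed a 2-fold limit. Over the whole set 38.9% lay beyond 2-fold lower (8.08% of all genes) and 1.98% beyond 2-fold higher (6.04% of all genes). Without replicate 1 of treated WT the share of the whole induced set within 2-fold was 14.9%, against 23.1% with all libraries. That fit also chose the set anew, so the 2 shares are not of the same genes.

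**Figure D1:**
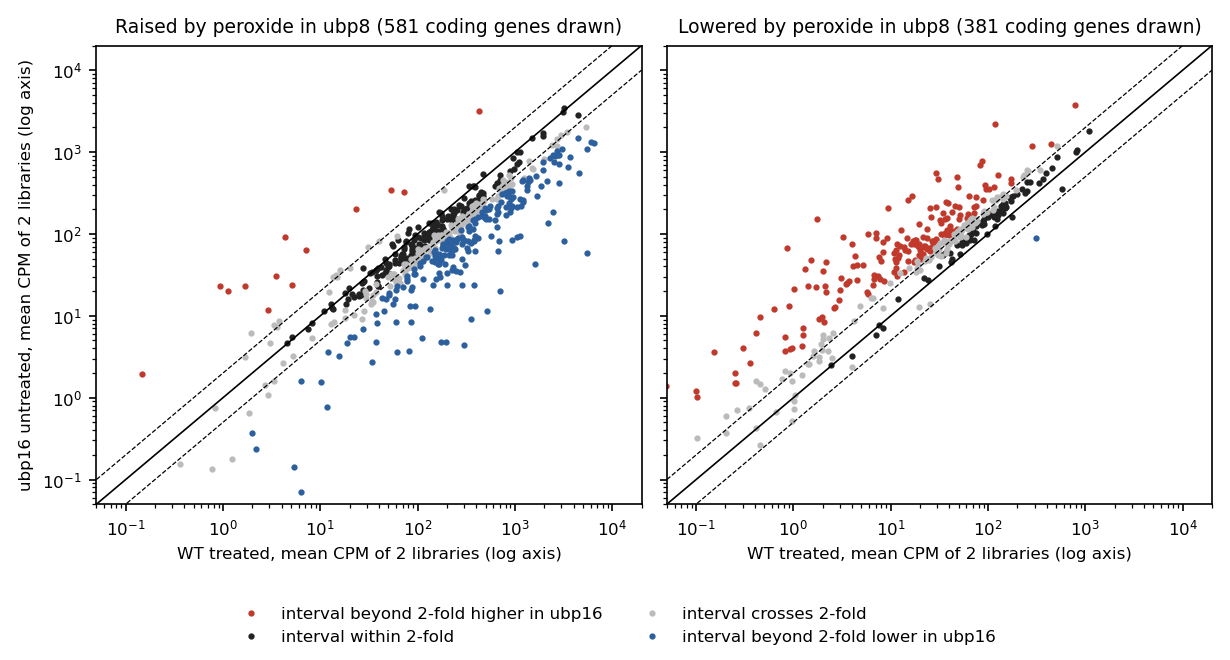
Mean CPM of untreated ubp16 (vertical, log axis) against mean CPM of treated WT (horizontal, log axis) for coding genes that rose (left, 581 genes) or fell (right, 381 of 383, as 2 are at 0 in treated WT and not drawn) at least 2-fold with peroxide in ubp8. The solid line marks equal levels, dashed lines 2-fold, and colours show where the 95% interval lies; most induced genes lie below the solid line and most lowered genes above it.

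The core stress genes, targets of Sty1 and Atf1 that answer many stresses, were part of the way up in the unstressed mutant. Their summed level was 9530 and 17000 CPM in untreated ubp16, 35700 and 41300 CPM in treated WT, and 2300 and 3260 CPM in untreated WT. Of 20 listed genes, untreated ubp16 was lower than treated WT in 15, higher in 1 and not called in 4, with a median log2 fold change of -1.50. The gene that was higher was fbp1, for an enzyme of gluconeogenesis. Against untreated WT 17 of the 20 were higher in the mutant and none lower. The 2 mutant libraries were not alike in this list: replicate 2 exceeded replicate 1 in 20 of 20 genes, by a median ratio of 1.66, whereas in treated WT it did so in 17 of 20 by a median ratio of 1.14. Without replicate 1 of untreated ubp16 13 genes were lower, and without replicate 2 there were 15.

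Catalase and small stress proteins show the pattern. The catalase gene ctt1, whose enzyme breaks down peroxide, had 640.7 and 1212 CPM in untreated ubp16, against 2517 and 3175 CPM in treated WT and 117.9 and 166 CPM in untreated WT. All mutant libraries lay between the WT groups, with no overlap on either side. The log2 fold change against treated WT was -1.62 ± 0.23 (adjusted p = 1.52e-05), or 32.5% of the stressed level. The gene ddr48, a stress protein gene, stood at 755.9 and 1799 CPM in untreated ubp16, 6060 and 6941 CPM in treated WT, and 15 and 23.8 CPM in untreated WT. It too was intermediate without overlap, at 19.7% of the stressed level. For ish1, which encodes a nuclear envelope protein, the share was 18.9%, and for srk1, which encodes a kinase that acts with Sty1, 18.8%.

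Other core stress genes came closer. The gene lsd90 had 1012 and 2253 CPM in untreated ubp16, against 2704 and 3168 CPM in treated WT and 15.4 and 19.1 CPM in untreated WT. The groups did not overlap and the difference passed the test at -0.85 ± 0.27 (adjusted p = 0.0144), but the call rested on single libraries: the value was -0.38 without replicate 1 of untreated ubp16 and -0.74 without replicate 2 of treated WT, neither called, and -1.54 without replicate 2 of untreated ubp16. The small heat shock gene hsp9 had 1266 and 2144 CPM in untreated ubp16, against 1659 and 2196 CPM in treated WT and 136.5 and 314.8 CPM in untreated WT. The mutant and treated WT overlapped there (-0.18 ± 0.30, adjusted p = 0.642). The hexitol dehydrogenase gene tms1 had 121.3 and 157.2 CPM in untreated ubp16, 182.3 and 129.6 CPM in treated WT, and 13.2 and 13.8 CPM in untreated WT. Its interval against treated WT, -0.51 to 0.18, lay within 2-fold.

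The phosphatase gene pyp2, whose product switches Sty1 off again, was not raised. It had 18.1 and 22.1 CPM in untreated ubp16, against 677 and 728.1 CPM in treated WT and 23.4 and 18.0 CPM in untreated WT. The mutant overlapped unstressed WT and stood at 2.87% of the stressed level (-5.13 ± 0.22, adjusted p = 4.16e-11). The wider Sty1 pathway was covered by 17 genes, from sensors and kinases to transcription factors and phosphatases. Of these 8 were lower than in treated WT (47.1%, against 27.9% of all coding genes) and 3 not called. The 6 that were higher (35.3%) lay near the share of all coding genes (38.7%). The median was -0.21 and turned to 0.08 when libraries were scaled by their totals. The gene pcr1, for the partner of Atf1, was at -2.03 ± 0.12 (adjusted p = 1.15e-09). The kinase gene win1 was higher, at 1.19 ± 0.09 (adjusted p = 8.62e-09).

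Chaperones, which fold and rescue proteins, did not reach the stressed level in untreated ubp16. Of 18 tested, 17 were lower than in treated WT and none higher, with a median log2 fold change of -1.22. The summed level was 19500 and 22000 CPM in untreated ubp16, 50200 and 51100 CPM in treated WT, and 27100 and 29300 CPM in untreated WT. The mutant libraries thus lay below both WT groups, and 10 of the 18 were lower than in untreated WT, with none higher. Leaving out any 1 of the 4 libraries also gave 17 genes lower than in treated WT.

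The Hsp70 gene ssa1 had 39.7 and 75.9 CPM in untreated ubp16, against 5410 and 5647 CPM in treated WT and 114.2 and 135.8 CPM in untreated WT. It stood at 1.05% of the stressed level (-6.59 ± 0.26, adjusted p = 1.9e-11) and below unstressed WT as well (-1.12 ± 0.22, adjusted p = 0.00108). The disaggregase gene hsp104 had 61.2 and 104.5 CPM in untreated ubp16, 3214 and 3179 CPM in treated WT, and 110.4 and 115.7 CPM in untreated WT. The small heat shock gene hsp16 had 36.1 and 49.2 CPM in untreated ubp16, 1570 and 1666 CPM in treated WT, and 51.6 and 87.2 CPM in untreated WT. Neither gene's mutant libraries overlapped treated WT, and the log2 fold changes were -5.28 ± 0.22 and -5.25 ± 0.31. The Hsp40 gene psi1 was lower by -3.60 ± 0.22 (adjusted p = 1.24e-09). The exception among the 18 was sks2, a ribosome-associated Hsp70 that was not called (0.09 ± 0.11) and that was counted as higher when libraries were scaled by their totals (0.38).

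**Figure D2:**
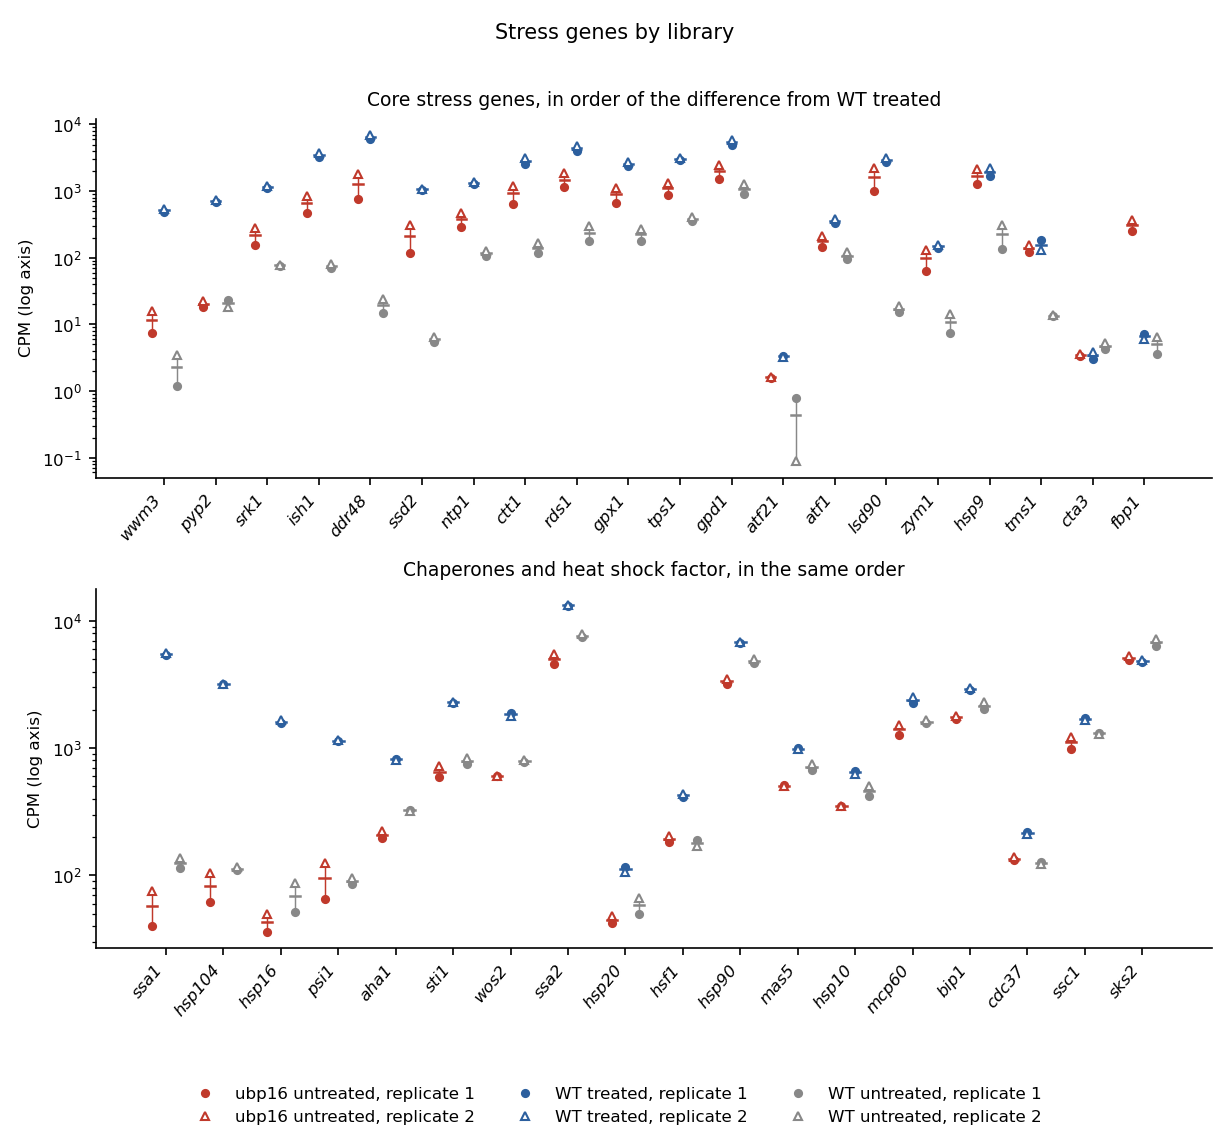
Level in each library (CPM, log axis) of the 20 core stress genes (top) and 18 chaperone genes (bottom), in order of the difference between untreated ubp16 and treated WT. Circles are replicate 1, open triangles replicate 2 and bars group means; most core stress genes of untreated ubp16 (red, left) lie between treated WT (blue) and untreated WT (grey), while the chaperones of untreated ubp16 lie near or below untreated WT.

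The list of Pap1 targets and the antioxidant enzymes overlap in 6 genes. Of 11 Pap1 targets 9 were lower in untreated ubp16 than in treated WT and 2 higher, with a median of -1.19. Of 24 antioxidant enzymes 16 were lower, none higher and 8 not called, with a median of -0.70; with library totals 13 were lower and 5 higher, with a median of -0.40. The sulfiredoxin gene srx1, whose product restores over-oxidised peroxiredoxin, had 24.5 and 23.3 CPM in untreated ubp16, against 286.1 and 289.1 CPM in treated WT and 10.1 and 9.45 CPM in untreated WT. It lay between the WT groups without overlap, at 8.31% of the stressed level (-3.59 ± 0.11, adjusted p = 1.92e-12). The peroxiredoxin gene tpx1 had 391.8 and 497.5 CPM in untreated ubp16, against 2114 and 2111 CPM in treated WT and 810.7 and 805.6 CPM in untreated WT. For tpx1 the mutant lay below both WT groups, with log2 fold changes of -2.25 ± 0.15 against treated WT (adjusted p = 4.63e-09) and -0.86 ± 0.15 against untreated WT (adjusted p = 0.00039). The peroxiredoxin gene pmp20 did the same, at 24.2% of the stressed level.

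Genes for superoxide dismutases, which turn superoxide into peroxide, were not called against treated WT. The mitochondrial enzyme's gene sod2 had 348.1 and 401.5 CPM in untreated ubp16, against 380.8 and 393.1 CPM in treated WT and 200.3 and 223 CPM in untreated WT. The mutant overlapped stressed WT, with an interval of -0.26 to 0.16, and was higher than unstressed WT by 0.82 ± 0.10 (adjusted p = 1.48e-05). With library totals it stood above treated WT instead (0.25). The copper-zinc enzyme's gene sod1 also overlapped treated WT (-0.10 ± 0.18, adjusted p = 0.675).

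A few stress genes reached the peroxide level without peroxide. By rule the 8 coding genes of the induced set with the largest rise in ubp8, an interval within 2-fold and at least 50 counts on average were named, so that their likeness is how they were chosen. They are SPBC23G7.10c, mag2, tms1, SPAC3C7.13c, hsp3102, SPAC15E1.02c, SPCC1393.12 and prl65. The uncharacterized gene SPAC15E1.02c had 302.8 and 473 CPM in untreated ubp16, 356.1 and 408.2 CPM in treated WT, and 5.57 and 9.80 CPM in untreated WT. The gene SPAC3C7.13c, annotated as glucose-6-phosphate dehydrogenase, had 205.4 and 337.1 CPM in untreated ubp16, 274.6 and 332.3 CPM in treated WT, and 23.3 and 24.4 CPM in untreated WT. Log2 fold changes of the 8 ran between -0.34 for SPBC23G7.10c, a flavin oxidoreductase, and 0.08 for prl65. Except in SPBC23G7.10c, the 2 mutant libraries stood on either side of the mean of treated WT. Without replicate 2 of untreated ubp16 SPCC1393.12 stood at -0.54 and prl65 at -0.69, while without replicate 1 they stood at 0.49 and 0.60. Without replicate 2 SPBC23G7.10c (-0.68), mag2 (-0.79), SPAC3C7.13c (-0.56) and hsp3102 (-0.58) were called lower as well.

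Untreated ubp16 went beyond stressed WT in 13 coding genes of the induced set, taken after their values were seen as those whose interval lay wholly beyond 2-fold higher. Their share of the coding induced genes, 2.24%, was below that of all coding genes (7.53%). The most abundant was dak1, which encodes dihydroxyacetone kinase of glycerol use. It had 2705 and 3689 CPM in untreated ubp16, against 431.8 and 418.4 CPM in treated WT and 203.7 and 230.3 CPM in untreated WT (2.91 ± 0.15, adjusted p = 3.22e-10). The ergothioneine synthesis gene egt1 had 281.6 and 375.5 CPM in untreated ubp16, 68.1 and 78.3 CPM in treated WT, and 42.3 and 48.1 CPM in untreated WT. The gene isp3, named as induced in sexual differentiation, had 64.4 and 121.2 CPM in untreated ubp16, 3.79 and 4.93 CPM in treated WT, and 2.54 and 4.33 CPM in untreated WT. In all 3 genes the mutant libraries lay above every WT library. Of the 13, hhy1 and isp3, and mel1 and hry1, were next to each other among coding genes of the ASM294v3 reference. Of the same 13, 6 had at most 3 coding genes between them and another of the 13. Neighbours were not counted for other genes, so these counts only describe positions.

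Trehalose protects proteins and membranes, and glycerol balances osmotic stress. Of 6 genes of these pathways 5 were lower in untreated ubp16 than in treated WT, with a median of -1.44. The trehalose synthase gene tps1 was at -1.47 ± 0.16 (adjusted p = 7.79e-07), the trehalase gene ntp1 at -1.82 ± 0.17 (adjusted p = 1.64e-07) and the glycerol-3-phosphate dehydrogenase genes gpd1 and gpd2 at -1.42 ± 0.20 and -1.50 ± 0.10. The sixth gene, gld1 for glycerol dehydrogenase, had 17.3 and 58.7 CPM in untreated ubp16, against 16.8 and 23.4 CPM in treated WT. It was not called, and without replicate 1 of untreated ubp16 it was called higher at 1.54, as it was with library totals at 1.17.

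Of 18 genes for the proteasome and polyubiquitin, 17 were lower in untreated ubp16 than in treated WT, none higher, and for 15 the interval lay within 2-fold. The median was -0.58. With library totals 13 were lower and the median was -0.29. Against untreated WT 1 gene of the 18 was called, ubi4 for polyubiquitin, a gene outside the naming rule. It had 158.3 and 197.1 CPM in untreated ubp16, 201.5 and 267.3 CPM in treated WT, and 55.5 and 60.6 CPM in untreated WT, a mutant level of 75.8% of the stressed one. The base subunit gene rpt6 showed the list's largest gap, with 274.9 and 344.4 CPM in untreated ubp16, 729.5 and 750 CPM in treated WT, and 331 and 338.5 CPM in untreated WT. There the mutant overlapped unstressed WT.

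Hsp31 proteins, glyoxalases related to DJ-1, gave 3 of 5 lower, 1 higher and 1 not called. The gene hsp3101 had 327 and 642.2 CPM in untreated ubp16, 1153 and 1315 CPM in treated WT, and 18.6 and 22.9 CPM in untreated WT. The gene hsp3103 went the other way, with 72.3 and 67.1 CPM in untreated ubp16 and 33.6 and 28.1 CPM in treated WT (1.18 ± 0.24, adjusted p = 0.000491). The call of hsp3105 was near the floor, at 0.425 and 0.874 CPM in untreated ubp16 and 1.89 and 1.78 CPM in treated WT. It was lost without replicate 1 of untreated ubp16 (-1.06) and without either replicate of treated WT (-1.52 and -1.60).

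Genes of sexual differentiation, which nitrogen starvation switches on, stood far higher in the unstressed mutant than in stressed WT. Of 18 such genes tested 13 were higher in untreated ubp16 than in treated WT, 2 lower and 3 not called, with a median of 2.87. The medians beside it were 1.46 for untreated ubp16 against untreated WT and -1.05 for treated against untreated WT. Leaving out any 1 of the 4 libraries gave the same counts.

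The meiosis regulator gene mei2 had 150.4 and 156.2 CPM in untreated ubp16, against 1.68 and 1.78 CPM in treated WT and 9.18 and 5.83 CPM in untreated WT (6.46 ± 0.21 against treated WT, adjusted p = 2.02e-12). The gene ste11, for the transcription factor at the head of the mating programme, had 59.1 and 74.9 CPM in untreated ubp16, 0.737 and 0.987 CPM in treated WT, and 14.2 and 12.9 CPM in untreated WT (6.25 ± 0.25, adjusted p = 1.69e-11). In both genes the 3 groups stood in the same order without overlap, with untreated ubp16 highest and treated WT lowest. The pheromone-response kinase gene spk1 had 90.5 and 92.5 CPM in untreated ubp16, 2.95 and 3.45 CPM in treated WT, and 14.8 and 14.8 CPM in untreated WT.

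Most markers of both mating types were also higher in untreated ubp16 than in treated WT. Of the 6 M-cell markers tested 5 were higher in untreated ubp16, with a summed level of 279 and 219 CPM, against 38.1 and 36.1 CPM in treated WT and 83.6 and 76.5 CPM in untreated WT. Of the 3 P-cell markers 2 were higher, with a summed level of 51.9 and 48 CPM in untreated ubp16, 12.1 and 11.6 CPM in treated WT, and 14.4 and 12.4 CPM in untreated WT. Against untreated WT 5 of the 6 M-cell markers but only 1 of the 3 P-cell markers were higher in untreated ubp16, with none lower. In treated WT 3 M-cell markers were lower than in untreated WT and none higher, and 2 P-cell markers were lower and 1 higher. These 9 markers are all in the mating list too, none was at 0 in any of these libraries, and their part in the result was not tested; in bulk samples more cells of a type and more RNA per cell cannot be told apart. The pheromone genes mfm1, mfm2 and mfm3 encode near-identical peptides, so their split counts are uncertain.

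Some glucose-repressed genes stood far apart, in both directions. The gluconeogenesis gene fbp1, a classic target of glucose repression and of Atf1, had 251.2 and 372.4 CPM in untreated ubp16, against 7.26 and 6.02 CPM in treated WT and 3.61 and 6.53 CPM in untreated WT. The WT groups overlapped and the mutant stood far above both (5.55 ± 0.22 against treated WT, adjusted p = 2.26e-11). The high-affinity hexose transporter gene ght5 had 372.9 and 412.1 CPM in untreated ubp16, 15.3 and 20.6 CPM in treated WT, and 29.9 and 28.0 CPM in untreated WT. The invertase gene inv1 went the other way, with 4.18 and 6.60 CPM in untreated ubp16, 109.1 and 110.2 CPM in treated WT, and 3.22 and 3.62 CPM in untreated WT. Of the 11 genes tested in this list 5 were higher (45.5%, against 38.7% of all coding genes), 3 lower (27.3%, against 27.9%) and 3 not called, so the list as a whole lay near the background. Its median was -0.03, and 0.26 with library totals. The repressor gene scr1 (-0.03 ± 0.19) and the activator gene rst2 (-0.25 ± 0.11) were not called, and rst2 was called without replicate 2 of treated WT (-0.37).

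Glycolysis genes were lower in the mutant than in either WT state. Of 13 tested 11 were lower than in treated WT, 1 higher and 1 not called, with a median of -1.18, beside -0.90 against untreated WT and 0.09 for treated against untreated WT. The enolase gene eno101 had 880.1 and 1022 CPM in untreated ubp16, 3491 and 3452 CPM in treated WT, and 3059 and 3333 CPM in untreated WT. The aldolase gene fba1 had 2260 and 2957 CPM in untreated ubp16, 8619 and 9033 CPM in treated WT, and 7763 and 8334 CPM in untreated WT. Log2 fold changes against treated WT were -1.87 ± 0.11 for eno101 and -1.76 ± 0.13 for fba1, with no overlap in either gene.

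Of the peroxide-lowered genes, 967 chosen in ubp8 (11.8% of those tested), fewer were called lower in untreated ubp16 than in treated WT. In untreated ubp16 213 were lower than in untreated WT (22.0%, against 11.3% of all genes), 72 higher and 682 not called. In treated WT 555 were lower than in untreated WT (57.4%, against 27.0% of all genes), 9 higher and 403 not called. A gene that was not called is not shown to have kept its level. Among coding genes of the set 143 were lower in untreated ubp16 than in untreated WT (37.3%, against 13.3% of all coding genes) and 40 higher. Set against treated WT, untreated ubp16 was higher in 526 (54.4%) and lower in 37 (3.83%), with a median of 0.96. Of the 383 coding genes of this set 342 were higher (89.3%, against 38.7% of all coding genes), with a median of 1.28. For 82 of them the interval lay within 2-fold (21.4%).

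Genes that split daughter cells apart stood well above stressed WT. Of 10 cell separation genes 9 were higher in untreated ubp16 than in treated WT, none lower, with a median of 2.45, and the same 9 to 0 was counted with any 1 of the 4 libraries left out. The septum glucanase gene eng1 had 397.4 and 538.9 CPM in untreated ubp16, 30.4 and 30.6 CPM in treated WT, and 701.5 and 856.9 CPM in untreated WT. It was intermediate without overlap, at 3.94 ± 0.21 above treated WT (adjusted p = 2.94e-10) and lower than in untreated WT (-0.74 ± 0.18, adjusted p = 0.00538). The gene that was not called, sep1, encodes a forkhead transcription factor (-0.17 ± 0.11).

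**Figure D3:**
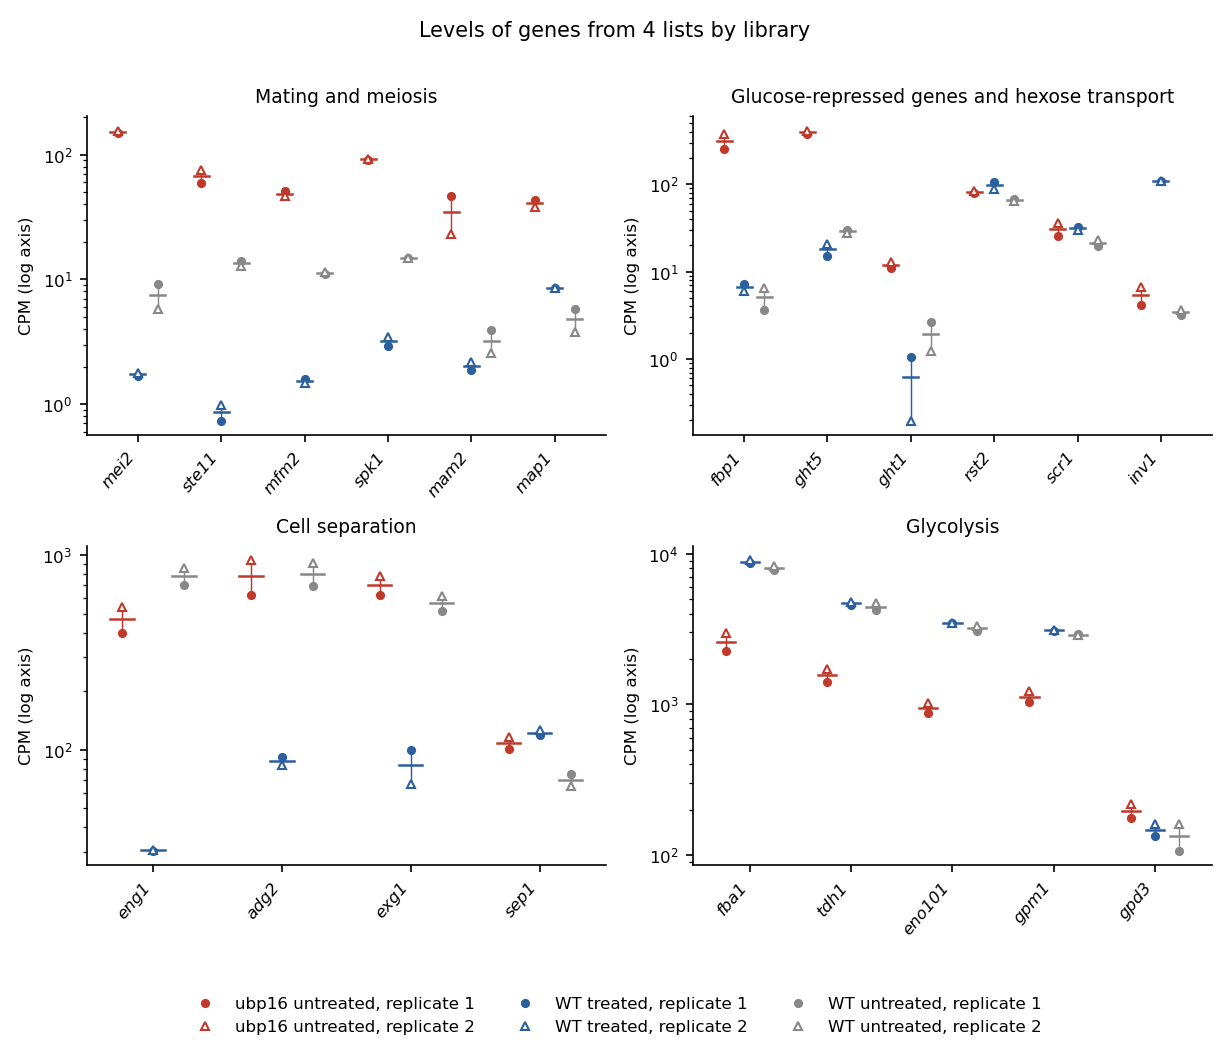
Level in each library (CPM, log axis) of genes from 4 lists in untreated ubp16 (red, left), treated WT (blue, middle) and untreated WT (grey, right), with replicate 1 as circles, replicate 2 as open triangles and bars for group means. Of the genes drawn, those of mating and meiosis and fbp1, ght5 and ght1 are highest in untreated ubp16, those of cell separation except sep1 are lowest in treated WT, and those of glycolysis except gpd3 are lowest in untreated ubp16.

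Genes for making ribosomes were only partly lowered in the mutant. Of 44 ribosome biogenesis genes tested 34 were higher in untreated ubp16 than in treated WT and none lower, with a median of 0.76. Against untreated WT 30 were lower in untreated ubp16, and in treated WT 39 were lower than in untreated WT. The processome gene imp4 had 155.2 and 149.4 CPM in untreated ubp16, 51 and 50.1 CPM in treated WT, and 191.2 and 184.9 CPM in untreated WT. It was intermediate without overlap, at 1.59 ± 0.09 above treated WT (adjusted p = 1.14e-09). The fibrillarin gene fib1, for the methyltransferase of box C/D particles, had 742.2 and 781.5 CPM in untreated ubp16, 701.5 and 759.3 CPM in treated WT, and 1083 and 1154 CPM in untreated WT, and so overlapped stressed WT. Of 139 cytosolic ribosomal protein genes 108 were not called and 132 had an interval within 2-fold. The 6 higher and 25 lower became 73 and 14 with library totals, so no direction is given for them, and many are near-identical copies whose reads may be split.

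Most genes of the next lists stood above stressed WT in untreated ubp16, though not all of them were called lower with peroxide in WT. The 3 uracil-regulated genes urg1, urg2 and urg3 were all higher in untreated ubp16 than in treated WT, by 2.89 ± 0.25, 2.12 ± 0.20 and 1.85 ± 0.14. They were lower than in untreated WT, as for urg1 with 192.1 and 236.1 CPM in untreated ubp16, against 541.9 and 938.4 CPM in untreated WT. The phosphate transporter gene pho842 had 99.4 and 99.9 CPM in untreated ubp16, 7.16 and 4.64 CPM in treated WT, and 276.6 and 273.5 CPM in untreated WT. It belongs to 4 phosphate genes tested, of which 3 were higher, none lower and 1 not called; pho7, a factor for phosphate genes at 0.32 ± 0.10, lost its call without replicate 1 of treated WT (0.25) or of untreated ubp16 (0.29). Of 10 targets of MBF, the factor for entry into S phase, 6 were higher, 2 lower and 2 not called, with a median of 1.07. Among all coding genes 38.7% were higher and 27.9% lower, so the share of lower MBF targets was not above the background. Log2 fold changes of the 10 ran between -0.92 and 2.70. The S phase genes cdt1 and cig2 and the kinase gene mik1 were higher by 2.11 ± 0.17, 2.21 ± 0.13 and 2.70 ± 0.25.

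Outside the lists, the naming rule took the 10 coding genes furthest apart in each direction. The lifespan gene ecl1 had 4.60 and 4.27 CPM in untreated ubp16, 265.1 and 333.4 CPM in treated WT, and 6.25 and 4.86 CPM in untreated WT. It overlapped unstressed WT and was far below stressed WT (-6.07 ± 0.21, adjusted p = 2.85e-12). The gene aes1 had 5.45 and 3.98 CPM in untreated ubp16, 177.7 and 211.7 CPM in treated WT, and 26.2 and 28.3 CPM in untreated WT, so the mutant was below both. The adducin gene mug14 had 583.3 and 514.5 CPM in untreated ubp16, 7.58 and 7.10 CPM in treated WT, and 4.79 and 6 CPM in untreated WT (6.22 ± 0.16, adjusted p = 2.33e-13). The uncharacterized gene SPAC11D3.19 had 31.5 and 32.2 CPM in untreated ubp16 and no count in either treated WT library, against 2.05 and 1.94 CPM in untreated WT. Its lower mutant library was at least 99.7-fold higher than 3 counts in a treated WT library. The gene SPBPB2B2.05, annotated to the class I glutamine amidotransferases, was near the floor in untreated ubp16, at 0.142 and 0.583 CPM, against 10.7 and 8.49 CPM in treated WT and 10.2 and 10.4 CPM in untreated WT.

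Iron genes differed in both directions. The siderophore enzyme gene sib2 was lower in untreated ubp16 than in treated WT (-2.27 ± 0.13, adjusted p = 8.47e-10), as was php4, for a repressor of iron use (-1.81 ± 0.11, adjusted p = 9.12e-10). The multicopper oxidase gene fio1 was higher (1.88 ± 0.18, adjusted p = 2.09e-07). The gene str3, of the iron and heme uptake list, had 85.6 and 34.4 CPM in untreated ubp16 and 13.6 and 9.08 CPM in treated WT. Its log2 fold change of 2.43 ± 0.40 was 1.61 without replicate 1 of untreated ubp16. The heme synthesis gene hem3 had 149.3 and 175.8 CPM in untreated ubp16, 20.1 and 32.2 CPM in treated WT, and 179.6 and 185.4 CPM in untreated WT. Over the uptake list 3 of 9 genes were higher and 3 lower (33.3% each). Over the heme and vacuole list 4 of 10 were higher (40.0%) and 3 lower (30.0%). These shares lie near those of all coding genes (38.7% and 27.9%). The uptake counts were 5 and 2 with library totals and 5 and 3 without replicate 2 of untreated ubp16. Without replicate 1 they were 2 and 3, and the median was -0.05 in place of 0.39. They were also 2 and 3 without replicate 1 of treated WT. The heme and vacuole counts were 5 and 2 with library totals or without replicate 2 of treated WT, and 2 were lower without replicate 1 of untreated ubp16.

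Of 15 ubiquitin-specific protease genes, the family of Ubp16 itself, 5 were higher, 4 lower and 6 not called, with a median of 0.10. These shares, 33.3% and 26.7%, lie near those of all coding genes (38.7% and 27.9%), and with library totals the counts were 9 and 2. Without replicate 2 of untreated ubp16 3 were higher and 5 lower, while without replicate 1, or without replicate 2 of treated WT, 2 were lower. The gene furthest from 0 was ubp11, with 13.5 and 12.8 CPM in untreated ubp16, 79.2 and 87.9 CPM in treated WT, and 14.2 and 14 CPM in untreated WT (-2.66 ± 0.13, adjusted p = 1.09e-10). The gene ubp8 was not called (0.20 ± 0.13), though it was with library totals (0.50). Of 8 genes for adding and removing H2B ubiquitin all had an interval within 2-fold, with 3 higher and 3 lower (37.5% each), or 4 and none with library totals. Of all coding genes 38.7% were higher and 27.9% lower. The list's median was 0.01 and ran between -0.09 and 0.10 with 1 library left out, so no direction is given. Of 10 core histone genes, whose reads may be split between near-identical copies, 3 were higher and 3 lower (30.0% each) and 4 not called. With library totals 5 were higher and 2 lower, so no direction is given for them either. Of 6 biosynthesis genes that often serve as auxotrophic markers in laboratory strains 5 were lower (83.3%, against 27.9% of all coding genes) and none higher, and ade6 was not called (-0.19 ± 0.10). Against untreated WT 4 of the 6 were lower in untreated ubp16 and none higher. In treated WT 4 were higher than in untreated WT and none lower, so both WT states enter this gap.

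Long non-coding RNAs took 1.91% and 1.67% of counts in untreated ubp16, 1.83% and 1.59% in treated WT, and 1.72% and 1.6% in untreated WT. Of 3109 tested, 753 were lower in untreated ubp16 than in treated WT (24.2%) and 399 higher (12.8%), with a median of -0.19. Of the 268 that peroxide induced in ubp8, 172 were lower (64.2%) and 15 had an interval within 2-fold.

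**Figure D4:**
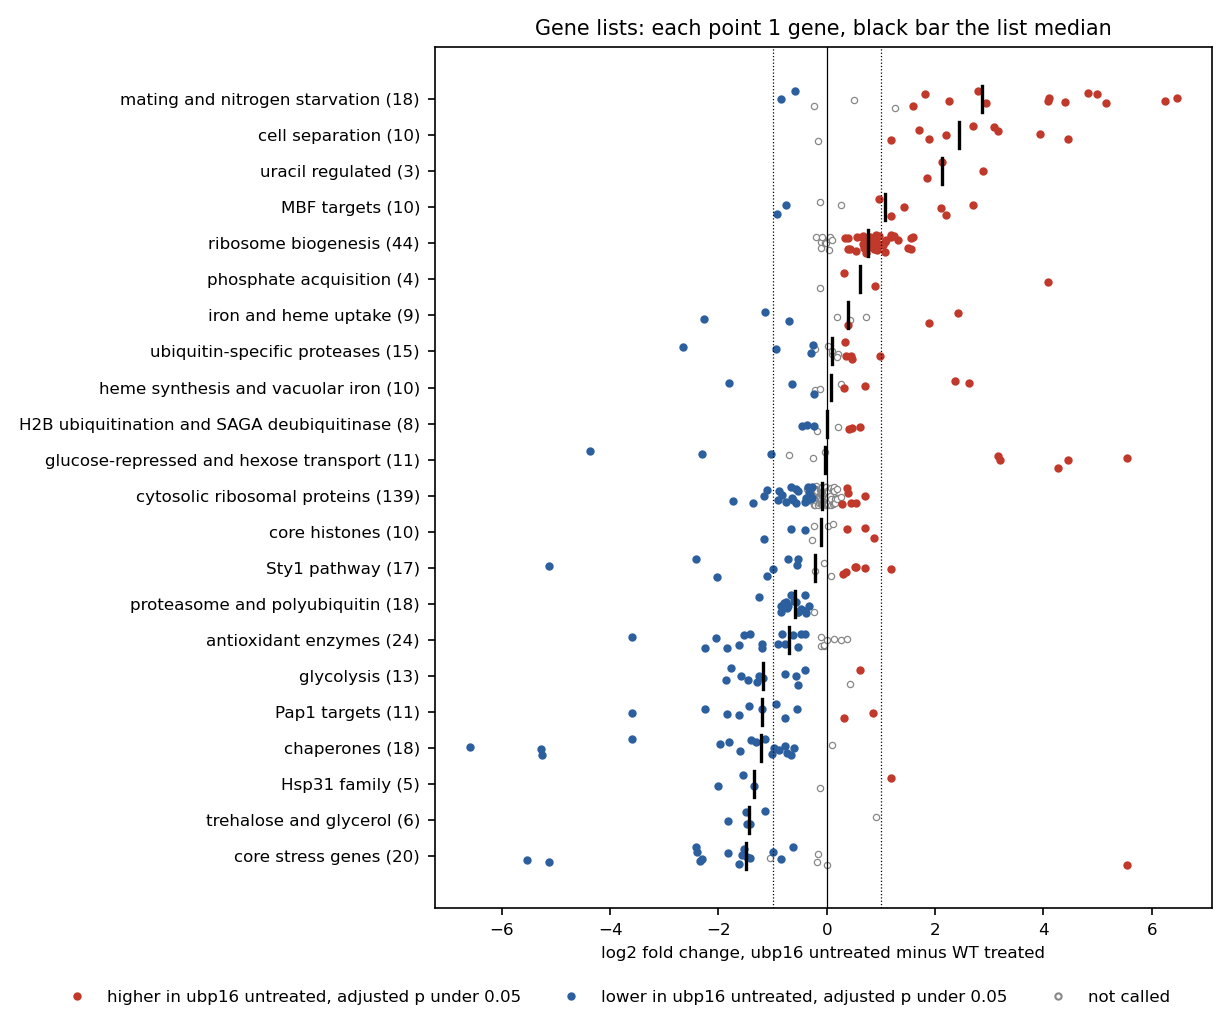
Log2 fold change of untreated ubp16 minus treated WT for each gene (points) of 22 lists, in order of the list median (black bars), with the number of genes tested after each list's name. Filled points passed an adjusted p under 0.05 (red higher, blue lower in untreated ubp16), open points did not, and dotted lines mark 2-fold; medians run between 2.87 for mating and nitrogen starvation and -1.50 for core stress genes.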

How the data were processed

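Per the labels' protocols, RNA was taken by hot phenol and polyA libraries were made with a stranded kit. The authors deposited whole-number counts of reads per gene, not normalized, for 12 libraries in 6 groups of 2. Per the submitters' processing notes the tools were HTSeq and STAR, with FastQC, Trimmomatic and DESeq2; their versions and the genome build are not given in the sources used here. Names, biotypes and neighbours came from RefSeq's ASM294v3 annotation, which matched 12602 of 12683 genes; the 81 others hold 0.0642% of counts. Since the build of the files is not given, no coordinates or sequences are printed.

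All 12 libraries were fitted together with edgeR 4.0.16 in R 4.3.3 (filterByExpr, TMM scaling, quasi-likelihood F-test, 1 mean per group, 6 residual degrees of freedom), which tested 8166 genes holding 99.95% of counts. P-values were adjusted by Benjamini-Hochberg within a comparison, with 0.05 as the threshold. CPM were computed by edgeR from the deposited counts with TMM-scaled library sizes. Fold changes are untreated ubp16 minus treated WT unless stated otherwise. SEs come from the F statistic, and 95% intervals from the same fit. Library totals ran between 9904056 and 14054746, and intervals on counts cover counting error only. The edgeR test of untreated ubp16 against treated WT was tried on simulated counts, and the other comparisons and alternatives were not.

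Members, sets and lists were chosen with earlier results of these data known. Peroxide-responsive genes were those past the threshold and 2-fold in treated against untreated ubp8. Genes named are ubp16, ubp8 and ctt1; the 10 coding genes furthest apart in each direction, with a mean of at least 50 counts and no overlap; the 20 largest rises and 10 largest falls in ubp8; 8 genes alike within 2-fold; and, from each list, up to 4 called and 2 uncalled members. Genes outside this rule are said to be so. Alternatives were median-of-ratios and library-total scaling, DESeq2 1.42.0, other filters, coding genes only, fewer libraries in the fit, a replicate block, each replicate left out, a 4-fold set threshold and a 1.5-fold interval. A search of promoters for motifs was not run. No replicate was counted as a duplicate. A gene that the naming rule picks is not reported here.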

Additional observations from a re-analysis of the deposited data

How the results depend on the processing

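Set and gene counts kept within 1.5 times under 226 alternatives and moved beyond it under 20; list medians kept their side or place under 262, moved under 37 and turned under 1; values of named genes kept direction and call under 1970, gained a call under 75, lost it under 19 and turned under 6. Scaling by library totals gave 1440 genes lower (2180 with TMM) and 1488 higher by at least 2-fold (953), put the share of lowered genes below untreated WT at 14.6% (22.0%), and turned the Sty1 pathway median to 0.08, cbf5 to 0.21, rps102 to 0.18, sod2 to 0.25 and wis4 to 0.24. With coding genes only, 559 genes were higher and 471 lower by at least 2-fold, and of the lowered set 85.0% were higher, 28.0% were within 2-fold and 42.2% were below untreated WT; with a mean of at least 50 counts 690 genes were lower by at least 2-fold, and the last 2 shares were 27.2% and 37.7%. Both filters test fewer genes. The peroxide-responsive sets were chosen anew in each alternative fit, so their shares are not of the same genes throughout. A 4-fold threshold for the sets put 7.64% of the induced and 1.99% of the lowered genes within 2-fold, and 8.76% of the lowered genes below untreated WT. A 1.5-fold interval, narrower by construction, held 8.61% of induced and 1.96% of lowered genes.

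Leaving out a replicate gave 736 to 1106 genes higher and 584 to 819 lower in untreated ubp16 against untreated WT, beside 1164 and 924 with all libraries; the lowest counts came without replicate 2 of untreated ubp16 (736) and of untreated WT (584), and 775 were higher without the last. It put 14.9% to 27.6% of induced genes within 2-fold, lowest without replicate 1 of treated WT. Without replicate 2 of untreated ubp16 SPCC1393.12 turned to -0.54 and prl65 to -0.69, beside 0.49 and 0.6 without replicate 1. A lone library left in a group is assumed to vary like the other groups. The cause of these shifts was not tested. With the replicate block 2383 genes were higher and 2236 lower and 76.5% of induced and 54.1% of lowered genes were called lower and higher; the labels give the numbers no shared culture, batch or day, and 2 numbers per group are too few for the data to settle a pairing. Deviations of same-numbered libraries correlated at 0.112 to 0.191 among the 3 groups compared, and at -0.0886 to 0.191 over all pairs of groups. Genes with few counts are limited by depth: a share within 2-fold needs a narrow interval, which 11.3% of long non-coding RNAs and 66.5% of coding genes had.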

Other observations

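Small nucleolar RNAs, which guide the modification of ribosomal RNA and lack polyA tails in their mature form, stood lower in the unstressed mutant than in stressed WT. Of 42 tested, 23 were lower (54.8%, against 26.7% of all genes), 4 higher and 15 not called, with a median log2 fold change of -0.78. They took 0.0409% and 0.0343% of counts in untreated ubp16, 0.189% and 0.192% in treated WT, and 0.0445% and 0.0431% in untreated WT, so that the mutant libraries lay below both WT groups. With untreated WT as the base, 1 of the 42 was higher and 5 lower in untreated ubp16, and 22 were higher and 3 lower in treated WT. In ubp8 the shares of counts were 0.0401% and 0.0404% untreated and 0.06% and 0.0615% treated, well below treated WT. The high share of treated WT was thus not seen in every strain under peroxide. In polyA libraries these counts cover only the part of the RNA that the selection caught, and its share in each sample was not measured.

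A single coding gene lowered by peroxide in ubp8, SPAC1039.02, had an interval wholly beyond 2-fold lower in the mutant and was taken after its values were seen. Its product is annotated as a phosphoprotein phosphatase. It had 89.2 and 88 CPM in untreated ubp16, against 320.4 and 295.4 CPM in treated WT and 1368 and 1354 CPM in untreated WT (-1.80 ± 0.12 against treated WT, adjusted p = 3.53e-09).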
